A study of Mus musculus with 8 samples.

Results

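Complex local splicing variations are exons that take part in 3 or more alternative junctions. They were selected from the authors' table of local variations by 2 criteria: at least 3 junctions, and a reference exon outside 3 windows on chromosomes 9, 2 and 14 in which 423 listed variations crowd together. This left 233 variations under 196 gene names, of 862 listed in all, with 1000 values of percent spliced in (PSI) for each group. Another 165 variations outside the windows had exactly 2 junctions and serve as the comparison.

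The cells were hepatocytes from livers of C57BL/6J mice with floxed alleles of Srsf3, cultured and exposed for 48 h to adeno-associated virus (AAV). All 4 libraries of the AAV-Cre group and all 4 of the AAV-GFP group came from floxed cells; the AAV-Cre group received Cre recombinase, which cuts out the floxed part of Srsf3, and the AAV-GFP group received green fluorescent protein. The table holds 1 PSI value for each junction and group, made by the authors over the libraries of the group. Spread between libraries, depth and expression level are therefore unknown, whether libraries came from separate mice is not stated in the labels, no test between groups was possible, and every difference below is a description. The change is AAV-Cre minus AAV-GFP throughout, and values of the groups are given below as with GFP and with Cre. Of markers for hepatocytes and 5 other liver cell types, only the macrophage marker Cd68 was listed among the variations, so the labelled cell type could not be checked from levels.

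Splicing joins exons by pairing a 5′ splice site at the end of an exon with a 3′ splice site at the start of a later one. SRSF3 is an SR protein, a family that binds exons and recruits the splicing machinery to nearby sites. Where several sites compete for the same exon, PSI gives the share of reads at that exon that use each of them, and the shares sum to about 1. An exon listed as a source looks downstream to the sites it can be joined to, and one listed as a target looks upstream.

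The exons that carry the clearest exchange are shown first, because exon skipping and inclusion was the most frequent kind of exchange. They are single, wholly coding exons of up to 300 nt, ranked by the largest change of any junction in their variation: 5 with lower inclusion in AAV-Cre and 4 with higher, read 5′ to 3′ from GENCODE vM21 transcripts on mm10; the Bin1 exon, which ranked before that of Yap1, is not printed. Capitals mark CATC, the letters of a core reported for SRSF3 binding, searched on the transcript strand only. Exons with lower inclusion in AAV-Cre were these.
Cttn, chr7:144450978-144451088, minus strand: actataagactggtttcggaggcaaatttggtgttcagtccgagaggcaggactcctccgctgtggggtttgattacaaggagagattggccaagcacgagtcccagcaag
Clcn7, chr17:25155368-25155537, plus strand: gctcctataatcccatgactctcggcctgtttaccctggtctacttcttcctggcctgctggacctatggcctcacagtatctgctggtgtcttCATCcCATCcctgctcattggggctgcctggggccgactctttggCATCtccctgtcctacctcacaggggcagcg
Slain2, chr5:72965804-72965881, plus strand: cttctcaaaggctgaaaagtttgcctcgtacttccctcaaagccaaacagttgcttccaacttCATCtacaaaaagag
Pcbp2, chr15:102485948-102486040, plus strand: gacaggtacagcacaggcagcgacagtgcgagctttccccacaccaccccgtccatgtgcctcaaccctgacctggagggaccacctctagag
Yap1, chr9:7950492-7950539, minus strand: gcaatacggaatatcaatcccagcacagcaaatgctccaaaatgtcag
Exons with higher inclusion in AAV-Cre were these.
Kdm1a, chr4:136582040-136582099, minus strand: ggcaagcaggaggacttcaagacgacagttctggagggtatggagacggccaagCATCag
Phldb2, chr16:45774944-45775087, minus strand: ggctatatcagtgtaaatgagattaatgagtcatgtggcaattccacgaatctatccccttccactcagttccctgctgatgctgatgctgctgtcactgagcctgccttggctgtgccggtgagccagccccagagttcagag
Wbp1l, chr19:46606712-46606759, plus strand: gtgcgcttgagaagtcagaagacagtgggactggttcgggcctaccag
Cadm1, chr9:47829377-47829409, plus strand: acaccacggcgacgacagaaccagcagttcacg
The Clcn7 exon held CATC 3 times, and the Slain2 and Kdm1a exons held it 1 time each. Among annotated coding exons of the same length, CATC was present in 61.7% for Clcn7, 31.1% for Slain2 and 26.1% for Kdm1a. The other exons printed did not hold these letters, which were present in 46.2% of coding exons of 111 nt, the length of the Cttn exon, and in 9.8% of those of 33 nt, the length of the Cadm1 exon. A match is a description of the letters and not of binding.

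The 233 variations ranged from 3 to 16 junctions. Exactly 3 junctions were present in 122 of them, 4 in 48, 5 in 34, and 6 or more in 29. Exon skipping was marked in 218, an alternative 5′ splice site in 130, an alternative 3′ splice site in 127 and an intron in 44. Only 60 carried the exon skipping mark alone, and 79 carried it together with both splice site marks. The largest change within a variation had a median of 0.305 and reached 0.841 in Srsf3. A change of at least 0.2 was present in 231 of the 233 (99.1%), and in 94.8% of all 862 listed variations, so the table itself is largely limited to changes of this size and nothing is read from that count. The median largest change of the 165 variations of 2 junctions was 0.311.

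Although many junctions were listed, the exchange usually ran between a pair of them. The most gained and the most lost junction or intron together held a median of 93.6% of the summed absolute change. This share was 96.5% with 3 junctions, 92.8% with 4, 91.6% with 5 and 77.4% with 6 or more. These shares depend on the number of junctions by arithmetic, so nothing is read from their size. Each variation was sorted by that pair, as shown in the bar chart of exchange kinds.

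**Figure D1:**
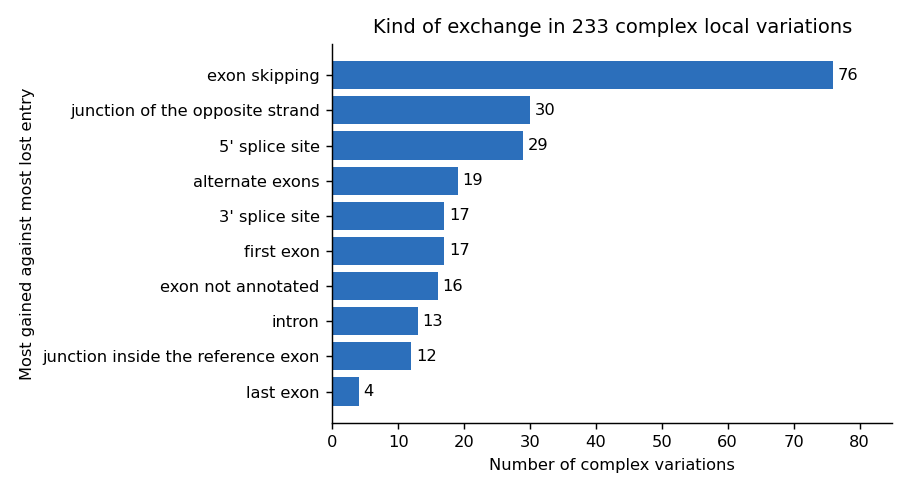
Number of complex local variations (x axis) by the kind of exchange between the most gained and the most lost entry (y axis). Exon skipping led with 76 of 233, and in 30 the pair included a junction annotated on the opposite strand only.

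Exon skipping was the exchange in 76 variations of 65 genes. After variations that described the same exon were merged, 67 exon sets remained, of which 38 (56.7%) were more often skipped in AAV-Cre and 29 (43.3%) were more often included. Median inclusion of the 38 went from 0.830 with GFP to 0.363 with Cre, a difference that their sorting by direction fixes. The length was a multiple of 3 in 23 of the 38 and in 13 of the 29, and the whole exon was coding in 27 and 13. No share over all listed variations stands beside the counts of direction, length and coding exons, so nothing is read from them. In 8 of the 38 the skipping junction was at 0.01 or less in AAV-GFP. The 38 include nested Srsf3 sets of 343 and 135 nt with the same skipping junction, which are not separate events. Both are among the 8 and lie in the gene that Cre cuts. How far the cut DNA rather than skipping of an exon gives these values was not tested.

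Srsf3 gave the largest change, at the floxed gene itself. From exon 1 (chr17:29032673-29032786), the junction to the annotated exon 2 had a PSI of 0.998 with GFP and 0.157 with Cre. A junction from exon 1 to 29040775, which passes over the exons between and is not annotated, stood at 0.001 with GFP and 0.767 with Cre. Another junction, to 29039454, stood at 0.001 and 0.078. Seen from the far end, the exon at 29040667 to 29040813 received the long junction at 0.001 with GFP and 0.672 with Cre. The junction from the poison exon of Srsf3, annotated to nonsense-mediated decay, was nearly level there at 0.184 and 0.196.

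The next examples had lower inclusion with Cre. Cttn encodes cortactin, which binds branched actin, and its 111-nt exon lies among the exons of the actin-binding repeats. The junction that included the exon stood at 0.891 with GFP and 0.208 with Cre, and the skipping junction at 0.104 and 0.790. Yap1, the transcriptional co-activator of the Hippo pathway, had its 48-nt exon included at 0.784 with GFP and 0.325 with Cre. Slain2, a regulator of microtubule growth, went from 0.698 to 0.151 for its 78-nt exon. Dnm1l, the dynamin that divides mitochondria, had 3 competing junctions, and the one that skips its 78-nt exon went from 0.566 with GFP to 0.898 with Cre. Klhdc3, a substrate receptor of a ubiquitin ligase, had its 153-nt exon included at 0.983 with GFP and 0.321 with Cre. Clcn7, the lysosomal chloride-proton exchanger, changed at 2 places. Its 170-nt exon, whose length is no multiple of 3, was included at 0.996 with GFP and 0.346 with Cre, and the skipping junction is not annotated.

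Genes of RNA-binding proteins differed in both directions. Pcbp2, a poly(C)-binding protein, had its 93-nt exon included at 0.594 with GFP and 0.113 with Cre. Hnrnph1, an hnRNP that acts on G-rich sequences, had its 139-nt exon included at 0.996 with GFP and 0.650 with Cre, with the skipping junction going from 0.001 to 0.310. Mbnl2, a muscleblind-like regulator, had its 95-nt exon included at 0.845 with GFP and 0.501 with Cre. Inclusion went the other way in Rsrp1, an arginine- and serine-rich protein, where a 45-nt exon of a non-coding transcript went from 0.097 with GFP to 0.548 with Cre seen from the upstream exon. Seen from the downstream exon, the same Rsrp1 exon went from 0.001 to 0.242. Thrap3, an SR-related factor, showed the same direction, from 0.339 to 0.717 for an 88-nt exon. Srsf2, another SR protein, had a 104-nt exon at 0.067 with GFP and 0.235 with Cre. Of 40 listed SR and SR-related genes, 8 had a complex variation, and of 62 hnRNPs and other regulators, 5 did. Among the remaining lists, a complex variation was present in 1 of 52 core spliceosome genes (Slu7), 1 of 68 chromatin regulators (Kdm1a), 7 of 78 genes of the cytoskeleton, adhesion and membrane traffic, 5 of 75 metabolic genes, 3 of 68 signalling genes and 2 of 54 genes on a list of RNA decay, export and end processing. Those 2 were Cnot2, of the deadenylase complex, and Mlx, which is a transcription factor and no RNA decay gene. The table lists no unchanged genes, so these counts have no share of changed genes beside them. Of all 354 gene names with any listed variation, windows included, 196 had a complex one outside the windows. The same count was 8 of 10 for SR and SR-related genes and 5 of 11 for hnRNPs and other regulators. It was 1 of 2 for the core spliceosome, 1 of 5 for chromatin regulators and 7 of 14 for the cytoskeleton list. For metabolic genes it was 5 of 8, for signalling 3 of 8 and for the RNA decay list 2 of 7. No direction is read from such small counts.

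Longer and very short exons were gained as well. Rab11fip1, an effector of the recycling endosome GTPase Rab11, included a coding exon of 1563 nt at 0.048 with GFP and 0.678 with Cre. Clip1, a protein that tracks growing microtubule ends, included one of 2268 nt at 0.002 and 0.305. In Cadm1, a cell adhesion molecule, the junction from an 84-nt exon into a 33-nt exon went from 0.001 with GFP to 0.273 with Cre, and the junction past the 33-nt exon from 0.998 to 0.705. A junction that skips the 84-nt exon stood at 0.001 and 0.133. The Cadm1 sets of 33 and 84 nt share a junction and are not separate events. Kdm1a, the histone demethylase LSD1, included its 60-nt exon at 0.476 with GFP and 0.785 with Cre. Khk, which phosphorylates fructose, included a 135-nt exon at 0.644 and 0.890. Its variation had 4 junctions, and the one that skips this exon went only from 0.202 with GFP to 0.075 with Cre. The pair held 75.8% of the summed absolute change, and the rest lay in other junctions.

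**Figure D2:**
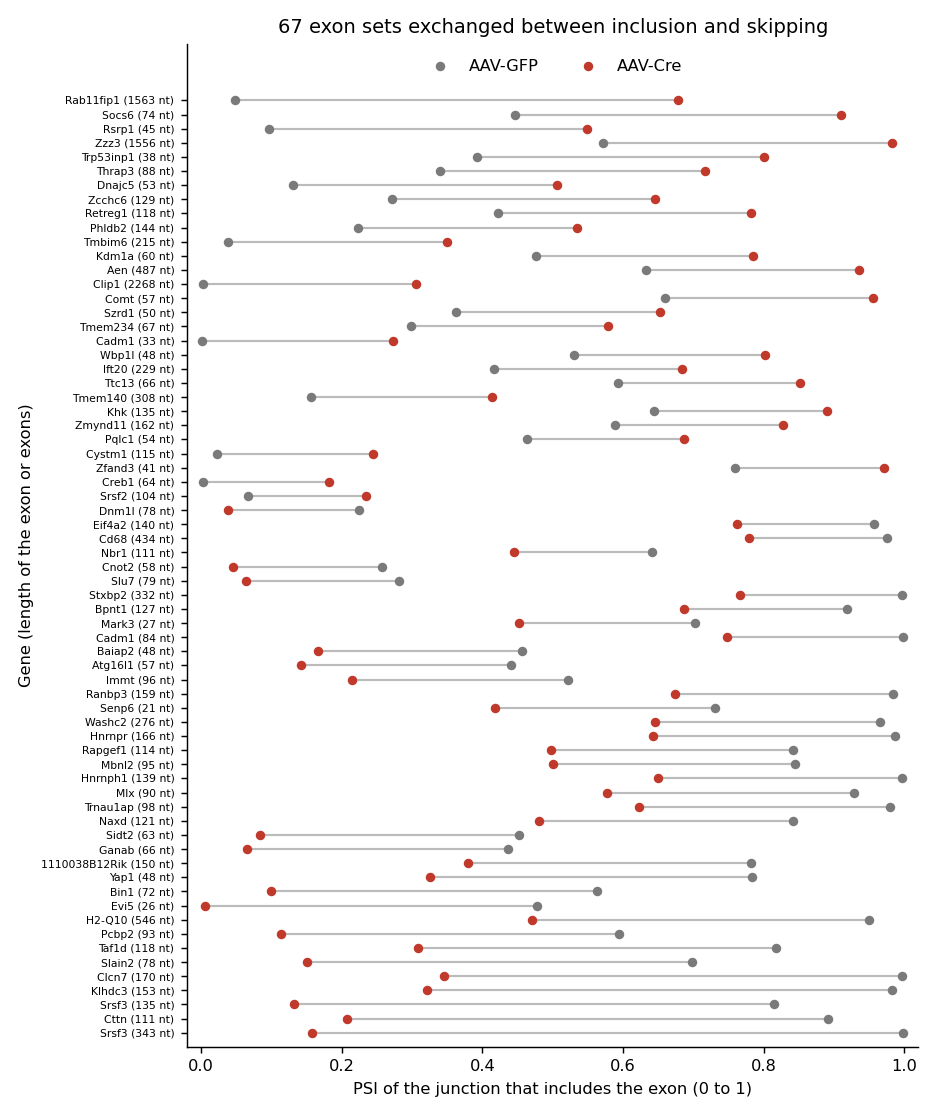
PSI of the junction that includes each of 67 exon sets (x axis, 0 to 1) in AAV-GFP (grey) and AAV-Cre (red), 1 value per group, with the gene and exon length on the y axis. The lower 38 were less included in AAV-Cre, led by Srsf3, the floxed gene itself, from 0.998 to 0.157. The upper 29 were more included, led by Rab11fip1 from 0.048 to 0.678.

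The junction-usage table, made with another tool in the same series, lists cassette exons by exact coordinates for 18 of the 67 exon sets, and the direction matched in 18 of 18. It holds only events at p below 0.05, and 5 of the 18 had a q-value of 0.05 or less. In the authors' deposited table, the Pcbp2 exon changed by -0.351 with a q-value of 0.00965. The authors' deposited table gives a change of -0.509 with a q-value of 0.00444 for the 90-nt exon of Mlx, a partner of the glucose-sensing factor ChREBP, whose inclusion here was 0.929 with GFP and 0.577 with Cre. The authors' deposited table gives the Cttn exon a change of -0.489 with a q-value of 0.344. Both tables describe the same series, so the match is not independent support.

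First exons were exchanged in 17 variations of 17 genes. Such a pair joins a shared exon to alternative starts, and PSI alone cannot tell a change in start from a change in splicing. In Noct, the circadian phosphatase nocturnin, the start nearest to the shared exon (chr3:51247805-51248074) went from 0.185 with GFP to 0.969 with Cre, and the distant start from 0.810 to 0.025. Suclg2, a subunit of succinyl-CoA ligase, moved to its nearer start from 0.048 to 0.547. Slc38a4, a transporter of neutral amino acids, moved to its farther start from 0.307 to 0.821. Rbp4, the plasma carrier of retinol, used its farther start at 0.201 with GFP and 0.452 with Cre. The gained start was the nearer in 9 and the farther in 8 of the 17. The pair listed under Gm16286 has the same junctions as a pair of 5′ splice sites 45 nt apart in an exon of Txnl4a. That exchange is counted in both kinds.

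Last exons were exchanged in 4 variations. In Dnm2, the dynamin of endocytosis, the junction to the farther end (21507423 on chromosome 9) stood at 0.102 with GFP and 0.670 with Cre, while the junction to 21506333 went from 0.636 to 0.239. Lamp2, a membrane protein of lysosomes with alternative last exons, shifted to its nearer one, from 0.742 to 0.946. Alternate internal or terminal exons were exchanged in a further 19 variations. In Slc39a14, the hepatic transporter of zinc, iron and manganese, one alternative exon went from 0.268 with GFP to 0.784 with Cre and the other from 0.730 to 0.193. H2afy, which encodes macroH2A1, moved between its exons in the same way at both ends: from 0.392 to 0.832 seen as a source, and from 0.595 to 0.903 seen as a target.

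Competing 5′ splice sites were exchanged in 29 variations, which described 23 distinct pairs. The gained site made the exon longer in 14 of the 23 and shorter in 9, and sites lay from 3 to 1797 nt apart with a median of 75. Longer and shorter forms have no share over all listed variations beside them, so no direction is read from this count. Dsp, which encodes desmoplakin of the desmosome, had the widest pair. The site of the long form, 1797 nt downstream, went from 0.373 with GFP to 0.945 with Cre, and that of the short form from 0.611 to 0.051. The authors' deposited table of junction usage gives 0.642 for the long form with a q-value of 0.0031. Mprip, which binds myosin phosphatase, gained a form longer by 354 nt, from 0.190 to 0.657. Ndufs8, a subunit of respiratory complex I, gained a form longer by 243 nt, from 0.027 to 0.396. Csnk1a1, the kinase CK1 alpha, gained 36 nt, from 0.414 to 0.810 in one variation and from 0.428 to 0.803 in the one at the other end. Mau2, a loader of cohesin, moved the other way by 3 nt, and the shorter form went from 0.334 with GFP to 0.858 with Cre. Hadhb, the beta subunit of the mitochondrial trifunctional protein, lost a site 43 nt downstream, which stood at 0.354 and 0.041.

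Competing 3′ splice sites were exchanged in 17 variations with 15 distinct pairs. The shorter exon was gained in 10 and the longer in 5, with a median distance of 30 nt. Here too, a share over all listed variations is lacking and no direction is read. Ptpn11, the phosphatase SHP2, used the site 12 nt farther in at 0.353 with GFP and 0.709 with Cre. Clcn7 used a site 13 nt farther in at 0.014 and 0.516; this junction is not annotated, and the distance is no multiple of 3. Pairs exactly 3 nt apart were present in 3 of the 15. Among these, Chtop, an RNA export factor, gained the longer form (0.484 to 0.778), while Srsf10 (0.106 to 0.259) and Tmem176b (0.390 to 0.582) gained the shorter.

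Across the table of junction usage, 48 of the 233 variations shared a junction with an alternative 5′ or 3′ site event. Of the matches with a change of at least 0.1 here and a finite change there, 76 of 77 had the same sign in the authors' deposited table that lists junction usage. Another 15 such matches, in genes that include Noct, Mau2, Bin1 and Rbp4, have no finite change in the authors' deposited table and were left out of that count. The 77 matches are not separate events. Where an event has a pair of junctions, their changes there mirror each other, as in Dsp (-0.642 and 0.642). Junctions listed from both ends, as in Chtop, were counted again, and so were the Txnl4a junctions listed under Gm16286. The count of matches therefore overstates the number of events with the same sign.

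Of the 44 introns, 30 (68.2%) were higher in AAV-Cre and 14 lower, against 66.8% higher over all 214 listed introns and 73.1% of the 52 in variations of 2 junctions outside the windows. Most moved little: 28 changed by under 0.1. An increase of at least 0.2 was present in 11 and a decrease of that size in 1, and the share of increases was 43.5% over all 214 introns. Dpp7, a lysosomal dipeptidyl peptidase, had an annotated intron of 70 nt at 0.001 with GFP and 0.404 with Cre. Aurkaip1, a mitochondrial ribosomal protein, had an intron entry at 0.001 and 0.319. Oasl1, an interferon-induced member of the oligoadenylate synthetase family, had an intron entry that was high in both groups, at 0.623 with GFP and 0.894 with Cre. Itih1, which encodes a heavy chain of a plasma protease inhibitor made in liver, went from 0.001 to 0.251. Cdv3 was the entry with a decrease of that size, from 0.638 with GFP to 0.001 with Cre, while the junction past this entry went from 0.359 to 0.946. Only 2 of the 11 increased entries, that of Dpp7 among them, matched an intron of the annotation end to end. The entry of Taf1d, from 0.001 to 0.612, is 8 nt long and that of the predicted gene Gm33838 is 20 nt long, so both are narrow gaps between listed exons rather than whole introns.

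**Figure D3:**
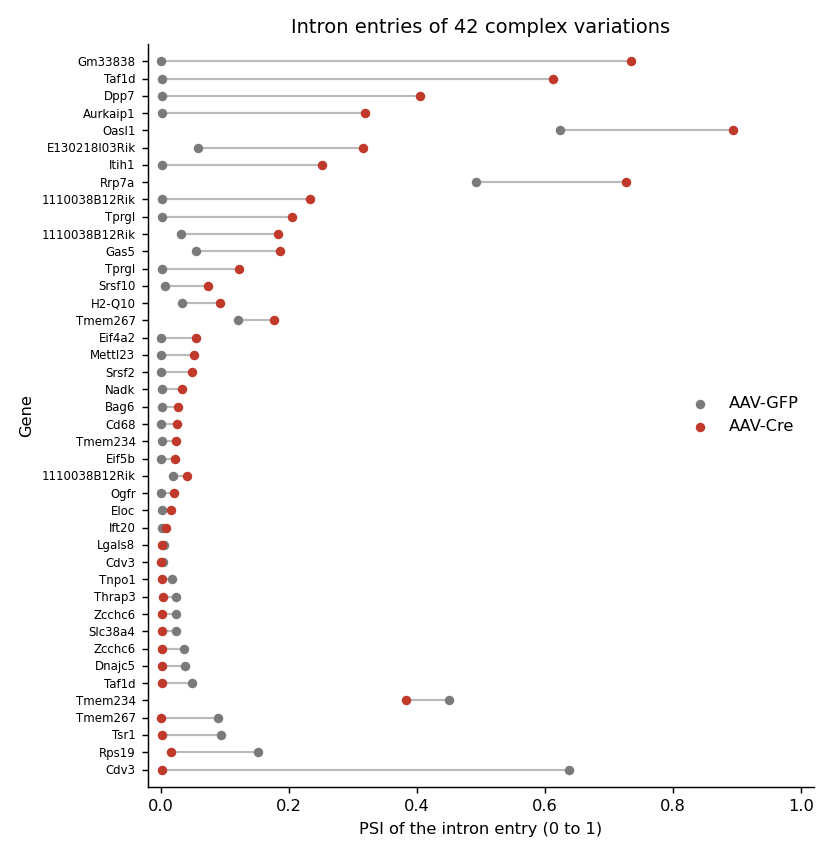
PSI of the intron entry (x axis, 0 to 1) of 42 of the 44 complex variations with an intron in AAV-GFP (grey) and AAV-Cre (red), 1 value per group, with genes on the y axis. Gm33838, Taf1d and Dpp7 were higher by the most, from 0.001 or less with GFP, and Cdv3 went from 0.638 to 0.001.

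Evenness of junction usage showed no direction. The effective number of junctions, the exponential of the Shannon entropy of the PSI values, had a median of 1.99 with GFP and 2.04 with Cre. It was higher in AAV-Cre in 119 variations (51.1%) and lower in 114, against 46.4% higher over all listed variations and 63.6% in variations of 2 junctions. The 51.1% moved to between 40.1% and 49.8% under 5 of 7 other settings. A junction with a PSI of 0.95 or more was present in 43 variations in AAV-GFP and in 20 in AAV-Cre. This count was not made over all listed variations, so nothing is read from it. The leading junction was another one in AAV-Cre in 93 of 233 (39.9%), against 46.3% over all listed variations and 26.7% in those of 2 junctions. The junction to the most distant exon was higher in AAV-Cre in 103 of 189 (54.5%) and lower in 79, against 45.8% higher over all 723 listed variations with an exon skipping mark and such a junction. Limited to changes of at least 0.2 and counting only those that moved, it was higher in 42 of 90 (46.7%), so no direction is read from it.

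**Figure D4:**
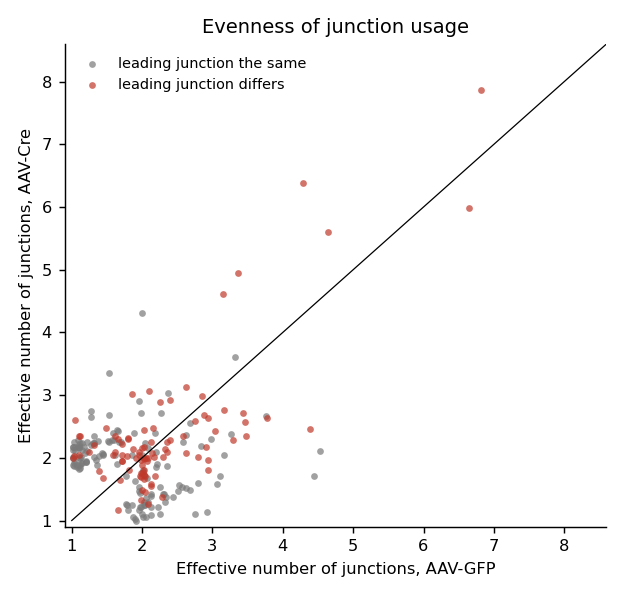
Effective number of junctions in AAV-GFP (x axis) and AAV-Cre (y axis) for 233 complex variations, with the line of equality; red marks the 93 in which the leading junction differs. Points lie on both sides of the line, 119 above and 114 below.

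Some junctions are annotated only on the strand opposite to the gene they are listed under. Of the 956 junctions, 560 are annotated on the gene's own strand, 314 are not annotated, and 82 (8.58%) are annotated on the opposite strand only. These 82 fall in 31 variations, and in 30 of them the most gained or the most lost junction is such a junction; in variations of 2 junctions the share was 14 of 330 (4.24%). The labels describe the libraries as stranded. The Hnrnpu variation, whose gained junction went from 0.035 with GFP to 0.656 with Cre, contains 2 junctions annotated to Cox20, at 0.502 and 0.455 with GFP and 0.059 and 0.281 with Cre. Shares of Hnrnpu and of Cox20 are mixed in these values, and expression of either gene was not measured in this table. In G6pdx, the first enzyme of the pentose phosphate pathway, the lost junction (0.809 to 0.181) is annotated to Ikbkg, and the gained one (0.180 to 0.816) to G6pdx. The authors' deposited table of junction usage gives this lost G6pdx junction the opposite sign, a change of 0.332 with a q-value of 0.526, the 1 match of the 77 that differed. In Mcm7, a subunit of the replicative helicase, the lost junction (0.473 to 0.053) is annotated to Ap4m1. In Fam57b both junctions of the pair are annotated to Aldoa, the muscle-type aldolase: the shorter went from 0.619 with GFP to 0.314 with Cre and the longer from 0.312 to 0.650. The junctions of Klhdc3 were listed a second time under Gm26904 on the other strand, at 0.984 and 0.324 for the inclusion junction.

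A junction can also lie wholly within its reference exon. There were 120 such junctions (12.6% of 956) in 44 variations, against 7 of 165 variations of 2 junctions. Read on the gene's strand, the removed stretch started with CT and ended with AC in 69, which is GT and AG on the opposite strand, and 57 of these 69 are annotated there only. It started with GT and ended with AG in 38, and 13 had other ends. Summed over each variation, PSI inside the exon was lower in AAV-Cre in 27 and higher in 17. A share over all listed variations is lacking for this direction, so nothing is read from it.

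In 19 of the 120, in 6 genes, at least 15 bases were repeated at both ends of the removed stretch, so the position of the junction cannot be placed exactly. Ogfr, the opioid growth factor receptor, had 7 junctions inside its exon, and all removed a whole multiple of 27 nt. The junction that removed 54 nt (180595180 to 180595235 on chromosome 2) stood at 0.135 with GFP and 0.001 with Cre, and that which removed 189 nt at 0.000 and 0.131. Summed over the junctions inside the Ogfr exon, PSI was 0.490 with GFP and 0.137 with Cre. The 30 bases before the 54-nt stretch and the last 30 bases within it are printed to show the repeat, with identical bases in capitals; 29 of 30 were identical.
Ogfr before the stretch, chr2:180595151-180595180, plus strand: CAGGTGGaGCCAGAGGACCCAAAAGGCCAG
Ogfr end of the stretch, chr2:180595205-180595234, plus strand: CAGGTGGgGCCAGAGGACCCAAAAGGCCAG
Sfr1, a recombination factor, had 4 such junctions, all multiples of 48 nt. The ribosomal RNA mt-Rnr2 of the mitochondrial genome was listed with 12 junctions, which lie inside its exon. Of all 956 junctions, 20 removed under 70 nt (2.09%), against 0.308% of annotated introns.

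**Figure D5:**
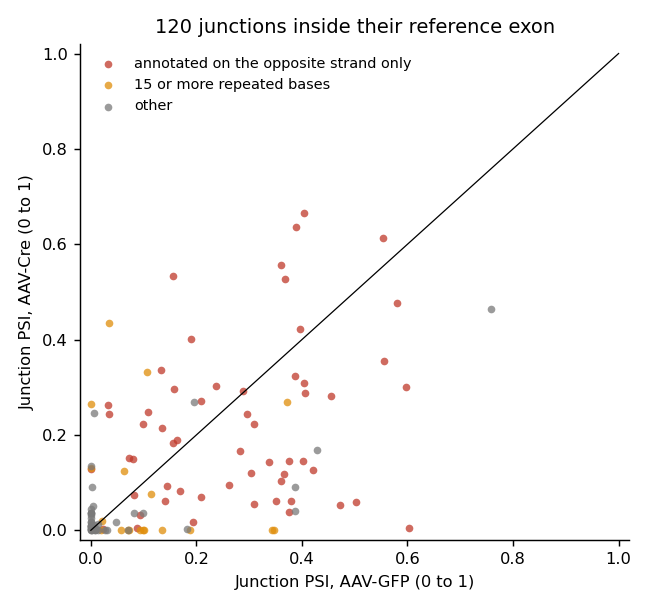
PSI of 120 junctions inside their reference exon in AAV-GFP (x axis) and AAV-Cre (y axis), both 0 to 1, with the line of equality. Red marks the 57 annotated on the opposite strand only, orange the 19 with 15 or more repeated bases; 70 were lower in AAV-Cre and 50 higher.

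Variations were not independent of each other. A junction was shared with another member by 63 of the 233, and the 233 formed 201 groups with no junction in common. Of 65 junctions listed from both of their ends, 64 changed in the same direction, and the changes differed by a median of 0.013. Leaving out the 49 variations with an opposite-strand or inside-exon junction left 184 in 150 genes, with the leading junction differing in 38% and the intron higher in 24 of 36.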

How the data were processed

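RNA-seq of cultured mouse hepatocytes gave 8 libraries, 4 per group, grouped by their titles. The submitters' processing notes name FastQC, STAR and the build mm10, while versions and the settings of the splicing tools are not stated in those notes. Per the file headers, the deposited table of local variations holds the authors' expected PSI for every junction in either group on a scale of 0 to 1, and its expected change is a deposited score. That score correlated at -0.996 with AAV-Cre minus AAV-GFP PSI, which was used instead. The deposited probability column was not used. The deposited table of junction usage holds changes in PSI with p-values and q-values, per the file headers. Since values of single libraries are not in these tables, no depth or spread could be computed and no test was run.

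Members and gene lists were chosen with earlier results of these data known. Kinds of exchange, the strand and inside-exon checks and the choice of printed sequences were set after values were seen. Each variation was sorted by its most gained and most lost entry against GENCODE vM21 (mm10), an opposite-strand junction taking precedence, then introns. On simulated data, 5 kinds were tested and 1000 of 1000 variations were sorted correctly; first, last and alternate exons, exons not annotated and opposite-strand junctions were not simulated. Named genes followed a rule: Srsf3; the 6 with the largest change among exon skipping marks and among introns; 4 each for splice site marks without exon skipping; the 3 with most junctions; and up to 4 per gene list; some genes of this rule are not reported here. Further genes shown as examples of a kind were chosen after their values were seen. Python 3.11.15, numpy 2.4.6 and matplotlib 3.10.9 were used.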

Additional observations from a re-analysis of the deposited data

How the results depend on the processing

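Of 233 complex variations, 231 changed by at least 0.2; this count was 124 at 0.3, 52 at 0.4, 110 with at least 4 junctions and 582 with the windows kept, and stayed within 1.5 times under the other settings tried. The share more even in AAV-Cre (51.1%) was 49.8% by the inverse Simpson index, 49.5% with 1 variation per gene, 47.7% with at least 4 junctions, 40.1% with the windows kept and 49.5% without predicted genes. The share with another leading junction (39.9%) was 52.7% with the windows kept. The share of introns higher (68.2%) was 87.5% among own changes of at least 0.1 and 91.7% among those of at least 0.2. The share of most distant junctions higher (56.6% of those that moved) was 46.7% at changes of at least 0.2 and 48.9% with the windows kept. The causes were not tested. Leaving out opposite-strand and inside-exon junctions, chosen after seeing the data, moved none of these 5 past the limits used. The threshold of 15 repeated bases was also chosen after seeing the data; it gave 19 junctions, against 20 at 10 bases and 17 at 20. No paired analysis was possible because the tables hold no values per library; for the same reason no replicate could be left out, and depth sets limits that are unknown.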

Other observations

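Several members sit on the same gene with exchanges of different kinds. Tmem267 had 3 complex variations, 1 of them with 16 junctions, the most listed. Its effective number of junctions there was 6.82 with GFP and 7.86 with Cre, and none of the 16 junctions is annotated. Taf1d also had 3: a 118-nt exon included at 0.818 with GFP and 0.309 with Cre, a junction of a transcript annotated to nonsense-mediated decay at 0.743 and 0.987, and the 8-nt entry at 0.001 and 0.612.

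The antigen-presenting family gene H2-Q10 lost 2 exons from 0.949 with GFP to 0.471 with Cre, and H2-Q6 lost a coding junction from 0.390 to 0.016. Both belong to a family of near-identical copies, and these values are uncertain.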
